A study of Homo sapiens with 38 samples.

Results

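The promoters of 54 genes that encode the DNA replication machinery were read across all 19 peak lists of Sp1 and its variants in the human osteosarcoma line U2OS, beside the 20028 protein-coding genes of the GENCODE 44 annotation. The 54 genes were a fixed list, grouped into 14 complexes by what their proteins do, and all 54 were found in the annotation. A gene was called occupied in a list when a peak lay within 1000 bp of any of its annotated transcript starts on hg38. CUT&RUN uses an antibody to bring a nuclease to a DNA-bound protein, so that the DNA beside the protein is released and sequenced.

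Every line in the study carries V5 and Halo tags on its endogenous Sp1, and the parental line with no construct is CTRL. The other lines each also express a SNAPf- and FLAG-tagged construct, driven by doxycycline from the AAVS1 locus, beside that endogenous Sp1. Sp1 WT is full-length Sp1, and Sp1 DBD is its zinc finger DNA-binding domain without the long N-terminal intrinsically disordered region (IDR). EWS IDR-Sp1 DBD joins that domain to the IDR of the RNA-binding protein EWS, and in Sp1 DBD Mutant the Sp1 domain is cut down to a lone zinc finger. CTCF DBD and LacI supply other DNA-binding domains, Sp1 IDR-CTCF DBD and Sp1 IDR-LacI join them to the Sp1 IDR, and SNAPf-NLS is a tag with a nuclear localization signal. The labels give 36 h of 1 μg/ml doxycycline, sorting for cells that express the transgene, and a further 36 h of doxycycline. Anti-FLAG read the constructs, and CTRL was read with both mouse and rabbit anti-FLAG. Rabbit and mouse anti-V5 read endogenous Sp1 in CTRL and in the Sp1 WT, Sp1 IDR-LacI and Sp1 IDR-CTCF DBD lines. The 38 samples give 19 pairs of replicates, 1 pair for each antibody in a line, and a peak list was made from both samples of a pair, so that a list is 1 observation and differences between lists have no test. Lists were called against shared control samples. Their values are given side by side. The lists held 22 to 5151 peaks, and 11 of them, called long lists here, held more than 1000: Sp1 WT, Sp1 DBD and EWS IDR-Sp1 DBD read with anti-FLAG, and the 8 anti-V5 lists. The peak lists do not carry the read depth, and read numbers were not used here.

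Replication begins where the origin recognition complex (ORC1 to ORC6), CDC6 and CDT1 load the MCM2-7 helicase onto DNA in G1. In S phase the CDC7-DBF4 kinase, CDC45 and the GINS complex turn the helicase on, polymerase alpha-primase lays down primers, and polymerases delta and epsilon extend them while held by the PCNA ring, which replication factor C (RFC) loads. Many of these genes are transcribed late in G1 under E2F factors, and their promoters are often GC-rich and without a TATA box. Sp1 binds GC boxes (GGGCGG), and CCAAT boxes, bound by NF-Y, are common in the promoters of cell cycle genes.

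The stretches of hg38 below lie at or next to the Sp1 WT peaks of 8 of the genes. Each carries the highest ranked Sp1 WT peak of its complex among those with room outside annotated exons, and they are shown so that peaks with GC boxes (MCM9, POLD4) can be read beside peaks without one near the summit (MCM3, CDC6, TIMELESS). Each is 120 bases long and is written 5′ to 3′ on the strand of the gene. Capitals mark CCAAT boxes, the GC boxes described above, and words bound by E2F factors (TTTCCCGC, TTTGGCGC, TTTCGCGC or TTTGCCGC, called E2F words here), each searched on both strands and free to overlap.
ORC6 (chr16:46689519-46689638, plus strand): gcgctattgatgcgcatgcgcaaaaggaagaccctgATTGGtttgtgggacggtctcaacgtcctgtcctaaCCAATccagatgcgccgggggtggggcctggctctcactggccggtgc
POLD4 (chr11:67353698-67353817, minus strand): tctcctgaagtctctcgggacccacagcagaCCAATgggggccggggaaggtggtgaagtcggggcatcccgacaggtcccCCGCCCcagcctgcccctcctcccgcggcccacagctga
PCNA (chr20:5126759-5126878, minus strand): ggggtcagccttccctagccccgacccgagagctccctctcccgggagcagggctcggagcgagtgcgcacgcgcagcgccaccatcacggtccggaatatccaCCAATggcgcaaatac
CDC6 (chr17:40287674-40287793, plus strand): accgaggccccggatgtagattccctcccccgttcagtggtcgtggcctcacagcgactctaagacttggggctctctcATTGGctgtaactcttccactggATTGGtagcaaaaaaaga
MCM3 (chr6:52284882-52285001, minus strand): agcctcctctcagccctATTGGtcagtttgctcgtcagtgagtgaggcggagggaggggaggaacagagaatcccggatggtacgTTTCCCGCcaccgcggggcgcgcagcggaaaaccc
TIMELESS (chr12:56449190-56449309, minus strand): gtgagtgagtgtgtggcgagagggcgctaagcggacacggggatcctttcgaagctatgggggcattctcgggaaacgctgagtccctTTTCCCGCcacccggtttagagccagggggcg
MCM9 (chr6:118935163-118935282, minus strand): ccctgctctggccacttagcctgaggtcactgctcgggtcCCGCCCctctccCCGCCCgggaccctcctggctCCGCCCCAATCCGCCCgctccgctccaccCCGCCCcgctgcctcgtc
CDC45 (chr22:19479572-19479691, plus strand): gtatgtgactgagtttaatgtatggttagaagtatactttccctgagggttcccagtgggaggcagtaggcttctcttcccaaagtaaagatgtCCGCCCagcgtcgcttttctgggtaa
The stretches of POLD4, PCNA, CDC6, MCM3 and CDC45 hold the summit of the peak. Those of ORC6, TIMELESS and MCM9 lie just beside it, since the summit itself is in an exon. The PCNA stretch lies at an upstream start that the gene shares with its neighbour CDS2, not at the canonical start.

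In the Sp1 WT list 24 of the 54 replication genes were occupied (44.4%, 95% Wilson interval 32.0 to 57.6%), against 23.7% of all protein-coding genes. The Sp1 DBD list held 17 (31.5%, 20.7 to 44.7%), against 16.1%. This difference of 15.4 points came down to 4.18 points with the 1332 highest ranked peaks and to 3.97 at an irreproducible discovery rate of at most 0.01. That rate is also written IDR below where a cutoff or a replicate is meant. In the names of constructs IDR is the disordered region. The EWS IDR-Sp1 DBD list held 8 (14.8%, 7.70 to 26.6%), against 11.1%, so that its interval takes in the share of all genes. These intervals cover counting error over genes, which are not replicates, and not the variation between cultures.

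Endogenous Sp1 was found at a larger share of replication genes than of all genes in each of its 8 lists. With rabbit anti-V5, 15 genes (27.8%) were occupied in CTRL, against 10.4% of protein-coding genes. The Sp1 IDR-CTCF DBD and Sp1 IDR-LacI lines each held 14 (25.9%), against 11.1% and 11.1%, and the Sp1 WT line held 12 (22.2%), against 8.66%. With mouse anti-V5, 12 genes (22.2%) were occupied in CTRL, against 9.76%. The Sp1 IDR-LacI and Sp1 IDR-CTCF DBD lines held 9 each (16.7%), against 8.80% and 7.34%, and the Sp1 WT line held 8 (14.8%), against 6.81%. Across the 8 anti-V5 lists the share of replication genes was 1.89 to 2.66 times that of all protein-coding genes, compared with 1.88 times for Sp1 WT, 1.96 for Sp1 DBD and 1.33 for EWS IDR-Sp1 DBD.

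Among the 8 short lists, CTCF DBD occupied 5 replication genes (9.26%, 4.02 to 19.9%), against 1.88% of all protein-coding genes. These were MCM3, ORC2, ORC6, PRIM2 and TIMELESS. Sp1 IDR-CTCF DBD occupied only MCM3 (1.85%), against 0.574%. No replication gene was occupied in the Sp1 IDR-LacI, LacI, Sp1 DBD Mutant or SNAPf-NLS lists or in either anti-FLAG list of CTRL, where the share of all protein-coding genes was 0.0649% in CTRL with rabbit anti-FLAG, 0.00499% in Sp1 IDR-LacI and 0 in the others. A count of 0 of 54 allows a share of up to 6.64% (Wilson).

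**Figure D1:**
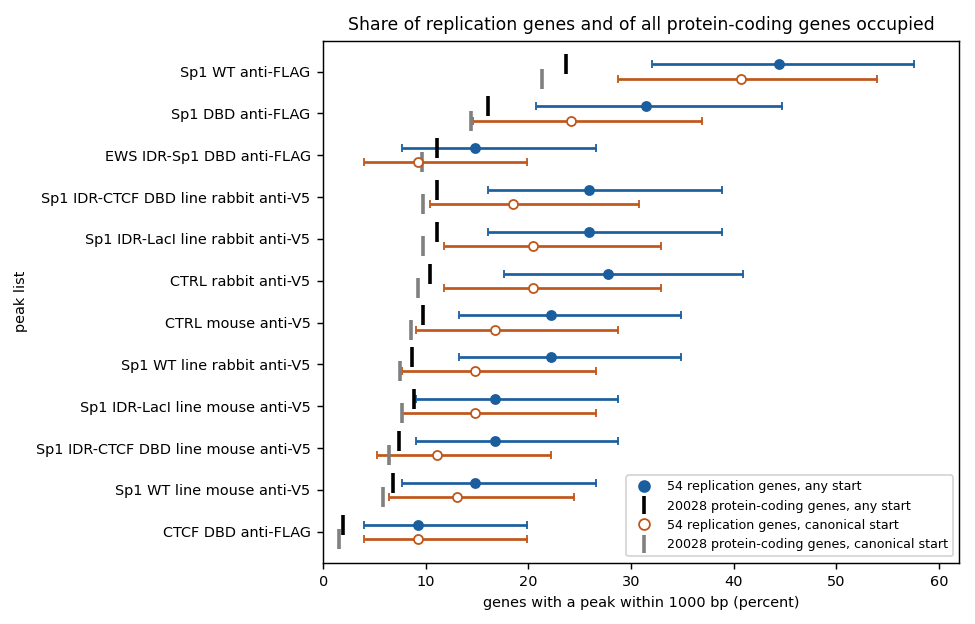
Percent of the 54 replication genes (points with 95% Wilson intervals) and of all 20028 protein-coding genes (vertical ticks) with a peak within 1000 bp, in the 11 long lists and the CTCF DBD list. Filled points count any start and open points the canonical start; in the EWS IDR-Sp1 DBD list the open point, 9.26%, lies just below its tick, 9.65%.

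An annotated gene can have many transcript starts, and the replication genes had a median of 7.5 (2 to 31), against 5.00 for all protein-coding genes. The counts were therefore repeated with the 1 canonical start of each gene. In the Sp1 WT list 22 genes remained (40.7%), against 21.3% of protein-coding genes, and in the Sp1 DBD list 13 (24.1%), against 14.4%. In the EWS IDR-Sp1 DBD list 5 remained (9.26%), against 9.65%, which turned the difference around. With rabbit anti-V5, 11 remained in CTRL (20.4%, against 9.23%), 11 in the Sp1 IDR-LacI line (against 9.72%), 10 in the Sp1 IDR-CTCF DBD line (18.5%, against 9.75%) and 8 in the Sp1 WT line (14.8%, against 7.48%). With mouse anti-V5, 9 remained in CTRL (16.7%, against 8.56%), 8 in the Sp1 IDR-LacI line (against 7.63%), 6 in the Sp1 IDR-CTCF DBD line (11.1%, against 6.36%) and 7 in the Sp1 WT line (13.0%, against 5.82%). Among the long lists the Wilson interval took in the share of all genes in EWS IDR-Sp1 DBD (4.02 to 19.9%) and in the Sp1 IDR-CTCF DBD line with mouse anti-V5 (5.19 to 22.2%). Its lower end lay just above that share in others, among them Sp1 DBD (14.6%) and the Sp1 IDR-LacI line with mouse anti-V5 (7.70%). All 5 genes of CTCF DBD (against 1.54%) and the 1 of Sp1 IDR-CTCF DBD (against 0.454%) had their peak within 1000 bp of the canonical start. For PRIM2 the CTCF DBD peak ended 600 bp from the nearest start, with its summit at −771 bp.

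The genes that dropped out had their peaks at a start shared with another gene. RPA3, the small subunit of the single-strand binding complex replication protein A, was occupied in 10 of 11 long lists at a start that it shares with UMAD1. The Sp1 WT summit there lay 77981 bp downstream of the canonical start, and no list had a peak at the canonical start. POLD3, a polymerase delta subunit, was occupied in 7 lists beside LIPT2, with the Sp1 WT summit at −99342 bp from its canonical start, and in 0 lists at that start. TIPIN, which protects stalled forks with TIMELESS, was occupied in 8 lists, in 7 of them beside MAP2K1. Its canonical start had a peak in 1 list, EWS IDR-Sp1 DBD, where its value stood at the 9.57th percentile. GINS1 was occupied in 2 lists beside ABHD12, and in neither at its canonical start. PCNA was occupied in 10 lists, mostly at the start beside CDS2. Its canonical start had peaks in 4 lists: Sp1 WT, Sp1 DBD and both anti-V5 lists of the Sp1 IDR-LacI line.

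Shared promoters were common among the replication genes more widely: 26 of the 54 had a start within 1000 bp of a start of another protein-coding gene. Of these 26, Sp1 WT occupied 13 (50.0%), against 36.3% of the 4666 protein-coding genes of the same kind. The 13 were MCM2, MCM7, MCM9, ORC4, ORC6, CDC45, DBF4, POLD1, POLD3, POLE3, PCNA, RPA3 and LIG1. Of the 28 genes without such a start, 11 were occupied (39.3%), against 19.9% of 15362. In the EWS IDR-Sp1 DBD list the counts were 7 of 26 (26.9%, against 16.5%) and 1 of 28 (3.57%, against 9.48%), and the 1 was POLD2. A gene with such a start can have its peak at another of its starts. The Sp1 WT peak of MCM9 and the EWS IDR-Sp1 DBD peak of TIPIN lay at the canonical starts, away from the neighbouring gene's start. Where a peak does lie at a shared start, its position cannot tell which of the 2 genes it belongs to.

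The strength of a peak was followed as its −log10 p, given for each replicate, and as a percentile of the smaller of both values among all protein-coding genes occupied in the same list, with 100 for the strongest. In the Sp1 WT list the median percentile of the 24 occupied replication genes was 63.8 (2.15 to 96.0), and 15 of them stood above the 50th. It was 46.9 in Sp1 DBD (17 genes) and 53.2 in EWS IDR-Sp1 DBD (8 genes). In the anti-V5 lists it ran from 23.6 to 49.0. With rabbit anti-V5, 7 of 14 occupied replication genes stood above the 50th percentile in the Sp1 IDR-CTCF DBD line and 7 of 14 in the Sp1 IDR-LacI line, 6 of 12 in the Sp1 WT line and 3 of 15 in CTRL. With mouse anti-V5 the counts were 6 of 12 in CTRL, 2 of 9 in the Sp1 IDR-CTCF DBD line, 1 of 9 in the Sp1 IDR-LacI line and 1 of 8 in the Sp1 WT line. At IDR of at most 0.05 the median in CTRL with mouse anti-V5 was 53.2, on the other side of the 50th.

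**Figure D2:**
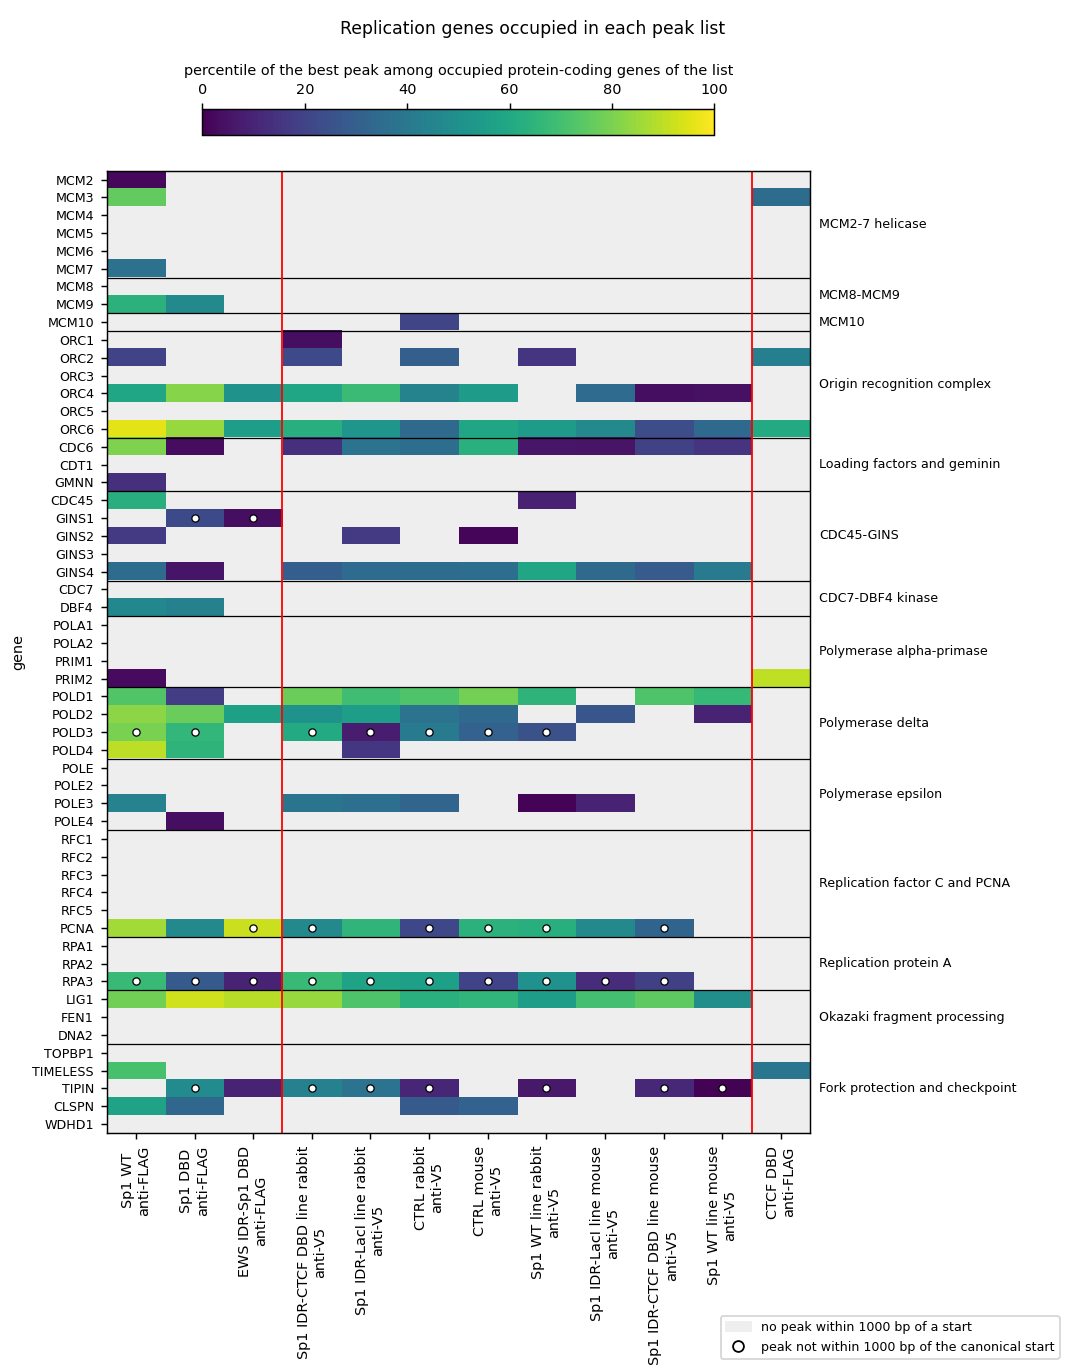
Occupancy of the 54 genes (rows, by complex) in the 11 long lists and the CTCF DBD list (columns); colour gives the percentile of the gene's strongest peak among occupied protein-coding genes of the list, grey means no peak within 1000 bp of a start, a white circle marks a gene with no peak within 1000 bp of its canonical start, and red lines part the FLAG, V5 and CTCF DBD lists. ORC6 and LIG1 are coloured in all 11 long lists, and RFC1 to RFC5 are grey throughout.

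Over the 11 long lists, 142 of the 594 gene-list combinations were occupied (23.9%), against 11.3% for all protein-coding genes. The combinations of a gene are not independent, since 8 of the lists read endogenous Sp1, so that 1 gene can supply most of a complex's count. At least 1 long list held 29 of the 54 genes (53.7%, against 28.9%), and at least 1 anti-V5 list held 19 (35.2%, against 15.1%). Both ORC6 and LIG1 were occupied in all 11 (3.70% of the genes, against 2.07%). In at least 10 were 7 genes (13.0%, against 3.98%), which adds ORC4, CDC6, GINS4, PCNA and RPA3. All 8 anti-V5 lists held 4 (7.41%, against 4.22%), namely ORC6, CDC6, GINS4 and LIG1, and at least 7 of them held 8 (14.8%, against 5.95%), which adds ORC4, POLD1, PCNA and RPA3. These counts, and those of the complexes below, take any start. At the canonical start RPA3 and POLD3 had peaks in 0 long lists, TIPIN in 1 and PCNA in 4, with 2 of the 4 anti-V5 lists. Exactly 1 long list held 9 genes (16.7%, against 8.31%). For 6 of these 9 it was the Sp1 WT list (11.1%, against 5.87%): MCM2, MCM3, MCM7, GMNN, PRIM2 and TIMELESS. The 25 genes with no peak in a long list (46.3%, against 71.1%) were MCM4, MCM5, MCM6, MCM8, ORC3, ORC5, CDT1, GINS3, CDC7, POLA1, POLA2, PRIM1, POLE, POLE2, RFC1 to RFC5, RPA1, RPA2, FEN1, DNA2, TOPBP1 and WDHD1.

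Within the origin recognition complex, which marks origins and brings in the helicase, 26 of 66 combinations were occupied (39.4%, against 11.3%), all from ORC1, ORC2, ORC4 and ORC6. ORC6 had the highest ranked Sp1 WT peak of any replication gene, with −log10 p of 62.4 and 74.8 in the replicates, rank 176 of 5151 and percentile 96.0. It was also occupied by Sp1 DBD (32.8 and 30.8), EWS IDR-Sp1 DBD (18.5 and 17.8) and CTCF DBD (11.2 and 18.4). In the 8 anti-V5 lists its values ran from 15.5 to 30.7 in the replicate given first to IDR and from 20.4 to 64.9 in the other, and its percentile from 23.6 to 62.6. Its summits lay in the neighbouring gene VPS35 in all 12 lists that held it, at −191 bp (Sp1 WT) to −714 bp (CTCF DBD) from the nearest ORC6 start, so that these peaks cannot be assigned to 1 of the 2 genes.

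ORC4 stood higher in the Sp1 DBD list (29.0 and 30.1, percentile 81.7) than in the Sp1 WT list (23.3 and 43.1, percentile 59.2). In EWS IDR-Sp1 DBD it had 20.7 and 16.8, percentile 50.8. It was absent from 1 long list, rabbit anti-V5 in the Sp1 WT line, and its percentile in the other 7 anti-V5 lists ran from 3.54 to 68.1. ORC2 was occupied by Sp1 WT (12.7 and 27.6, percentile 20.4), by CTCF DBD and in 3 of the rabbit anti-V5 lists. ORC1, the largest subunit, had a peak only in the Sp1 IDR-CTCF DBD line with rabbit anti-V5 (9.3 and 14.1, percentile 3.69).

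Of the loading factors, CDC6 was occupied by Sp1 WT with 35.3 and 44.1 (percentile 80.7), and by Sp1 DBD with 9.4 and 11.8 (percentile 3.39). It was in all 8 anti-V5 lists at percentiles of 5.39 to 63.6, and not in the EWS IDR-Sp1 DBD list. Its promoter stretch, shown above, holds 2 CCAAT boxes and no GC box. GMNN, which encodes the CDT1 inhibitor geminin, had a peak only in the Sp1 WT list (11.3 and 16.3, percentile 14). CDT1 itself had none, although its promoter window holds a GC box.

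The MCM2-7 helicase had few occupied combinations, 3 of 66 (4.55%, against 11.3%), all of them in the Sp1 WT list. In that list alone 3 of its 6 genes were occupied (50.0%, against 23.7%). MCM3 had 31.4 and 48.3 (percentile 75.8), MCM7 16.6 and 28.4 (37.2) and MCM2 8.9 and 17 (2.15). MCM2 stood at rank 5020 of 5151, close to the end of the list. MCM3 was also the replication gene occupied by both CTCF constructs, at 9.2 and 23.5 for CTCF DBD and 12.3 and 10.9 for Sp1 IDR-CTCF DBD. Its summits in these lists lay within 38 bp upstream of the nearest start, as did that of Sp1 WT. Of the other MCM genes, MCM9, which acts with MCM8 in DNA repair, was occupied by Sp1 WT (25.5 and 39.0) and Sp1 DBD (20.5 and 16.3), and MCM10 only in CTRL with rabbit anti-V5 (13.4 and 19.9, percentile 21.0).

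Among the helicase activators, GINS4 was occupied in 10 long lists, at modest rank. Its percentile was 35.4 in Sp1 WT (16.1 and 25.7) and 5.63 in Sp1 DBD, and 28.7 to 58.7 in the 8 anti-V5 lists. CDC45 was occupied by Sp1 WT (24.9 and 30.6, percentile 63.2) and in the Sp1 WT line with rabbit anti-V5 (10.2 and 11.6). GINS2 was occupied by Sp1 WT (11.8 and 17.5) and in 2 anti-V5 lists. DBF4, the regulatory subunit of the kinase, was occupied by Sp1 WT (19.2 and 45.0) and Sp1 DBD (15.3 and 19), while its catalytic partner CDC7 had no peak in any list.

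Polymerase delta, which copies the lagging strand, was the most occupied complex by combinations, with 28 of 44 (63.6%, against 11.3%). All 4 of its genes had Sp1 WT and Sp1 DBD peaks. The Sp1 WT values were 29.2 and 34.9 for the catalytic subunit POLD1, 37.6 and 70.9 for POLD2, 34.9 and 41.2 for POLD3 and 47.1 and 68.8 for POLD4. Their percentiles, 72.8 to 90.2, were all in the upper part of the list. In the Sp1 DBD list POLD1 stood lower (11.4 and 21.8, percentile 18.1), while POLD2 (26.8 and 31.2), POLD3 (31.6 and 21.6) and POLD4 (26.4 and 21.2) stood at percentiles of 65.2 to 77.3. Only POLD2 was occupied by EWS IDR-Sp1 DBD, at 17.9 and 26.9. POLD1 was in 7 anti-V5 lists at percentiles of 65.0 to 79.1, and was missing with mouse anti-V5 in the Sp1 IDR-LacI line. Its peak in CTRL with mouse anti-V5 was 8519 bp wide with the summit at −7306 bp from the nearest start, so that this value belongs to a summit away from the POLD1 promoter. The peak in the Sp1 IDR-CTCF DBD line with mouse anti-V5 was also wide, at 5040 bp. Without POLD3, whose peaks lie at the LIPT2 start, 3 of the 4 genes had a peak at the canonical start in both the Sp1 WT and the Sp1 DBD list. The Sp1 DBD peak of POLD4 was 2318 bp wide. Its summit lay at −670 bp from the canonical start, in an exon of another annotated gene.

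Polymerase alpha-primase stood at the other end, with 1 of 44 combinations (2.27%, against 11.3%). This was PRIM2 in the Sp1 WT list (9.1 and 20.6, percentile 2.97), whose peak ended 71 bp from the nearest start. It was the only Sp1 WT call among the replication genes without a start inside the peak. PRIM2 stood higher among the CTCF DBD peaks (15.5 and 22.5, percentile 90.3), with a peak that ended 600 bp from the nearest start. The nearest Sp1 WT peaks to genes that were not called lay far beyond the 1000 bp limit, at 20214 bp for POLA2, 22946 bp for MCM5 and 27102 bp for POLE, so that no Sp1 WT call rested on the exact limit. Of polymerase epsilon, which copies the leading strand, the catalytic subunit POLE and POLE2 had no peak. The small subunit POLE3 was occupied by Sp1 WT (18.5 and 22.3, percentile 44.4) and in 5 anti-V5 lists, and POLE4 only by Sp1 DBD (9.5 and 9.5, percentile 3.62).

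The clamp and its loader differed: PCNA was occupied in 10 of 11 long lists and no loader gene in any. PCNA had 41.5 and 65.1 in the Sp1 WT list at the start beside CDS2 (percentile 86.1), and a separate peak at its canonical start with 24.8 and 32.9. In Sp1 DBD the peak at the canonical start had 22.1 and 16.0, and in EWS IDR-Sp1 DBD the peak beside CDS2 had 35.4 and 45.1, at the 92nd percentile of that list. The genes of the loader, RFC1 to RFC5, had no peak in any of the 19 lists. Their nearest Sp1 WT peaks lay 76504 bp (RFC5) to 332170 bp (RFC4) from a start, although the promoter windows of RFC1, RFC2, RFC4 and RFC5 hold GC boxes.

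LIG1, the ligase that seals Okazaki fragments, was the one gene of its group with peaks, and was occupied in every long list. It is among the genes with a start near that of another protein-coding gene. It had 33.6 and 75.6 in Sp1 WT, 39.7 and 50.3 in Sp1 DBD and 32.0 and 41.8 in EWS IDR-Sp1 DBD. Its percentile was higher in Sp1 DBD (92.6) and EWS IDR-Sp1 DBD (89.3) than in Sp1 WT (78.6), and 49.6 to 84.6 in the anti-V5 lists. LIG1 has 27 annotated starts, and its summits moved among them, from −160 to 484 bp of the canonical start. FEN1 and DNA2, the nucleases of the same step, had no peak. Of the replication protein A genes only RPA3 was occupied, beside UMAD1 as described. Among fork protection genes, TIMELESS was occupied by Sp1 WT (28.4 and 33.9) and CTCF DBD (9.3 and 13.2). CLSPN, the checkpoint adaptor claspin, was occupied by Sp1 WT (22.7 and 38.9), by Sp1 DBD (25.7 and 13.6) and in both CTRL anti-V5 lists.

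**Figure D3:**
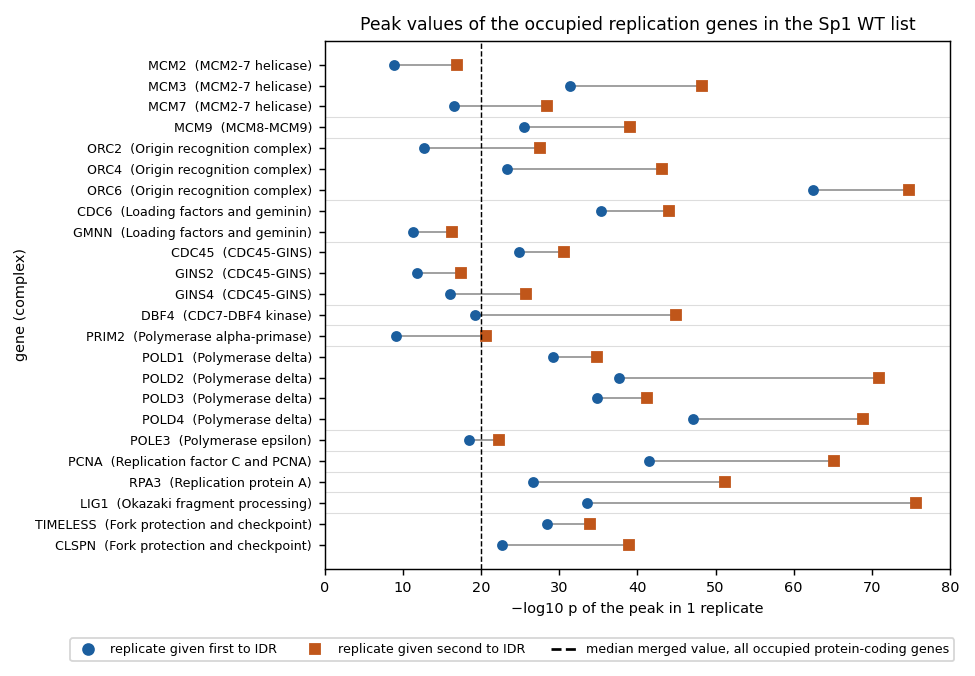
The −log10 p of the peak in each replicate (circle, given first to IDR; square, given second) for the 24 replication genes occupied in the Sp1 WT list, grouped by complex; the dashed line is the median of the smaller value over all occupied protein-coding genes, 20.0. The second value is the higher for all 24 genes, ORC6 has the highest circle at 62.4 and MCM2 the lowest at 8.9.

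Among the replicates of Sp1 WT, the second had the higher value for all 24 occupied genes, with a median difference (first minus second) of −12.1, against −13.9 for all occupied protein-coding genes. A shift shared by all genes would leave their order unchanged, but the difference varied between genes, from −42.0 to −3.8. CDC6 stood above MCM3 in the first replicate (35.3 and 31.4) and below it in the second (44.1 and 48.3). With 2 replicates, neighbours in the order of values cannot be told apart. MCM2, PRIM2, GMNN, GINS2 and ORC2 had first values of 8.9 to 12.7, below the lower value of every polymerase delta gene.

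Summits lay close to the annotated starts. In the Sp1 WT list the median distance from summit to nearest start was 74.5 bp for the replication genes (4 to 643 bp), against 130 bp for all occupied protein-coding genes. In Sp1 DBD it was 76 bp against 134 bp, and in EWS IDR-Sp1 DBD 115 bp against 149 bp. The replication genes also have more annotated starts, which shortens the distance to the nearest, and the part of this in the difference was not tested. Peak widths were alike, with medians of 1051 bp and 1002 bp in the Sp1 WT list.

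**Figure D4:**
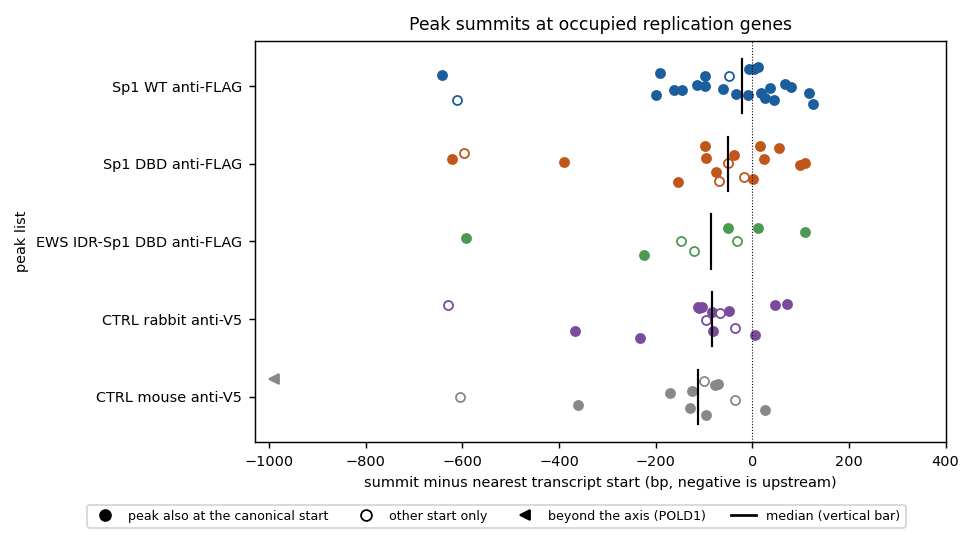
Position of the peak summit relative to the nearest annotated start (bp, negative is upstream) for occupied replication genes in 5 lists; filled circles have a peak at the canonical start, open circles only at another start, vertical bars are medians, and the triangle is the POLD1 peak of CTRL mouse anti-V5, at −7306 bp. Most summits lie within 200 bp of a start.

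GC boxes were searched for in the 100 bp to either side of a summit. With Sp1 WT 21 of 24 replication gene peaks had one (87.5%, 69.0 to 95.7%), against 74.5% of the peaks of all occupied protein-coding genes. In Sp1 DBD 16 of 17 had one (94.1%, 73.0 to 99.0%, against 77.2%), and in EWS IDR-Sp1 DBD 7 of 8 (87.5%, 52.9 to 97.8%, against 78.6%). In each of these FLAG lists the interval takes in the share of all genes. The anti-V5 lists did not have 1 direction in common. With rabbit anti-V5 the shares were 86.7% against 84.5% in CTRL, 85.7% against 84.4% in the Sp1 IDR-CTCF DBD line, 85.7% against 85.1% in the Sp1 IDR-LacI line and, in the Sp1 WT line, 83.3% against 84.4%. With mouse anti-V5 they were 91.7% against 86.4% in CTRL, 88.9% against 87.7% in the Sp1 IDR-CTCF DBD line, 77.8% against 87.4% in the Sp1 IDR-LacI line and 75.0% against 85.2% in the Sp1 WT line. Within 50 bp the Sp1 WT share was 41.7%, against 48.3%, so that the direction of the difference depended on the window. The Sp1 WT peaks of MCM3, CDC6 and TIMELESS had none. CDC6 had none in any of the 10 lists that held it, and 3 CCAAT boxes lay near its summit in the Sp1 WT and Sp1 DBD lists. MCM9 had the most GC boxes of the Sp1 WT peaks, 6 near its summit there and in Sp1 DBD. CCAAT boxes lay near 14 of the 24 Sp1 WT summits (58.3%, against 33.6%) and E2F words near 3 (12.5%, against 3.67%), namely MCM3, GINS2 and CLSPN.

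The promoter window of RefSeq (GRCh38.p14), from 250 bases before to 50 after the gene's start, was matched by symbol for 47 of the 54 genes and for 15309 protein-coding genes. MCM4, MCM5, GINS4, POLD3, RPA2, RPA3 and DNA2 were not matched. A GC box was found in 36 of the 47 windows (76.6%, 62.8 to 86.4%), against 59.2% of all windows, and the longer form GGGGCGGGG in 18 (38.3%), against 22.8%. CCAAT was found in 27 (57.4%), against 36.6%. The E2F words had the widest gap: 21 windows held at least 1 (44.7%, 31.4 to 58.8%), against 4.49% of all. MCM6 held 4, and MCM2, MCM3 and MCM7 held 2 each. The GC content of the windows differed little, with medians of 65.0% and 63.0%.

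Occupancy at the canonical start was then set against the letters of these windows. Over all protein-coding genes, 31.2% of those with a GC box in the window were occupied by Sp1 WT and 9.61% of those without. Among the replication genes the shares were 16 of 36 with a GC box in the window (44.4%) and 5 of 11 without (45.5%). The 5 were MCM3, ORC4, ORC6, CDC6 and PRIM2. Of these, ORC4 had 3 GC boxes near its Sp1 WT summit, and ORC6 and PRIM2 had 1 each. MCM3 and CDC6 had none there. TIMELESS, counted with a GC box, had none near its summit. The shares by window therefore do not compare peaks with and without a GC box. Of the 21 windows with an E2F word, 8 were occupied (38.1%, against 31.1% of all such genes), and of the 26 without, 13 (50.0%, against 22%). A RefSeq window can lie at another start than the canonical one, and these are small numbers, as the intervals in the plot of motif shares show.

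**Figure D5:**
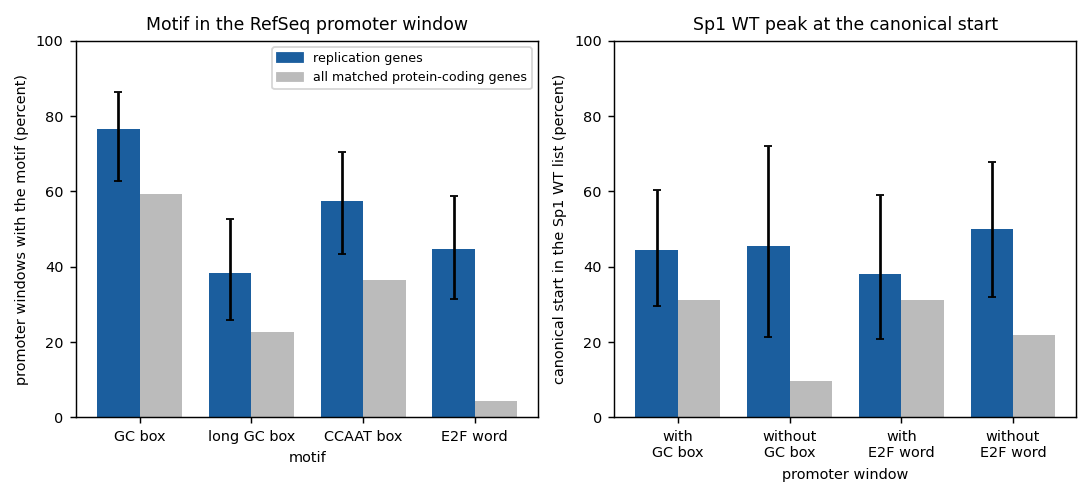
Left, percent of RefSeq promoter windows with each motif for 47 replication genes (blue, with 95% Wilson intervals) and 15309 protein-coding genes (grey). Right, percent of genes with a Sp1 WT peak at the canonical start, by whether the window holds a GC box or an E2F word. Replication genes are at 44.4% with and 45.5% without a GC box, and all genes at 31.2% and 9.61%. ORC4, ORC6 and PRIM2 have no GC box in the window but have one near the Sp1 WT summit.

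Beside the 54 genes, 74 related S-phase genes in 5 lists were counted. Of these, 25 were occupied by Sp1 WT (33.8%, against 23.7%), 23 by Sp1 DBD (31.1%, against 16.1%) and 12 by EWS IDR-Sp1 DBD (16.2%, against 11.1%). Nucleotide supply genes had 7 of 16 in Sp1 WT (43.8%, against 23.7%) and 9 of 16 in Sp1 DBD (56.2%, against 16.1%). The highest ranked were the ribonucleotide reductase subunit RRM2B (57.1 and 106.3, percentile 94.4, in all 11 long lists) and the CTP synthase CTPS1 (52 and 64.5). Of the chromatin assembly genes 4 of 10 (40.0%, against 23.7%) were occupied by Sp1 WT, led by the histone chaperones ASF1B (42.0 and 74.7) and NAP1L1 (16.1 and 27.3). Topoisomerases and other fork factors had 5 of 20, which at 25.0% was close to the share of all genes, led by TOP1 (37.8 and 57.1) and TICRR (22.8 and 35.2). E2F, DP, RB and DREAM factors had 6 of 18 (33.3%, against 23.7%), led by the DREAM subunits LIN52 (81.5 and 99.8, percentile 98.7) and LIN37 (44.2 and 64.7). Cohesin genes had 3 of 10 in Sp1 WT (30.0%, against 23.7%), among them STAG1 (26.6 and 48.0) and RAD21 (14.5 and 21.6). They had 0 of 10 in Sp1 DBD (against 16.1%) and in EWS IDR-Sp1 DBD (against 11.1%), and 10 genes are few for such a comparison.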

How the data were processed

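Per the labels, CUT&RUN was done in U2OS lines, with 2 replicates for every antibody and line. Per the submitters' processing notes and the study's methods, adapters were removed by cutadapt 2.6 and the reads mapped to hg38 by Bowtie2 2.3.5.1. Duplicates were taken out with SAMtools 1.9, and MACS3 (version written as 2.2.7.1) called peaks at a p of 1e-3 with the merged replicates of a control as background. The irreproducible discovery rate (IDR) method then compared the peaks of both replicates. The authors deposited peaks with IDR of at most 0.1, with a −log10 p of the merged peak, a −log10 p from either replicate and a −log10 score of the global IDR. The merged value equals the smaller replicate value. Which labelled replicate was given first to IDR is not known here. The 6 deposited tables of differential regions hold the authors' own comparisons and were not used.

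Starts came from GENCODE 44, and a gene of both sex chromosomes was counted once. All 60 sequence names in the lists were found in the reference. Genes were ranked by their strongest peak within 1000 bp. Counts of genes near peaks were checked against bedtools 2.31.1, with a different set in 0 of 19 lists, and the code was tested on simulated data. No test was run, since each list is 1 observation. The peak lists carry no read depth, and shares have 95% Wilson intervals. Software was Python 3.11.15, NumPy 2.4.6, SciPy 1.17.1, pysam 0.24.0 and matplotlib 3.10.9. The 54 genes, the 5 related lists and the alternatives were chosen with earlier results of these data known. Any of the 54 genes could be named. Other genes were named only where a start lay within 1000 bp of an occupied start of 1 of the 54, or as the 2 with the highest ranked Sp1 WT peak in each related list. Alternatives were other distances, the summit, canonical starts, IDR of at most 0.05 and 0.01, equal numbers of peaks, lists without control peaks, genes without shared promoters, and other rankings and motif windows.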

Additional observations from a re-analysis of the deposited data

How the results depend on the processing

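The share of replication genes occupied exceeded that of all protein-coding genes in the 11 long lists, and in 106 of 110 differences recomputed under an alternative. The 110 are not separate checks, since the lists overlap and some alternatives change few or no genes. Without control peaks, for example, Sp1 WT kept the same 24 replication genes and 4744 protein-coding genes. The difference turned around in EWS IDR-Sp1 DBD with canonical starts (−0.387 points), with IDR of at most 0.01 (−0.166) and without shared promoters (−5.91), and in the Sp1 IDR-LacI line with mouse anti-V5 at IDR of at most 0.01 (−0.306). The cause was not tested. Distances of 500 and 5000 bp, the summit, lists without control peaks and chromosomes 1 to 22 and X kept the share of every long list within its interval. Short lists were not recomputed.

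With IDR of at most 0.01 the share occupied left the interval in 8 lists, given here against that of all protein-coding genes: Sp1 WT (31.5%, against 13.3%), Sp1 DBD (11.1%, against 7.14%, difference 3.97 points), EWS IDR-Sp1 DBD (3.70%, against 3.87%), CTRL rabbit anti-V5 (11.1%, against 6.28%, difference 4.83), the Sp1 WT line with rabbit (9.26%, against 5.15%, difference 4.11) and mouse anti-V5 (7.41%, against 5.00%), the Sp1 IDR-LacI line with mouse anti-V5 (5.56%, against 5.86%) and the Sp1 IDR-CTCF DBD line with mouse anti-V5 (7.41%, against 5.27%). With the 1332 highest ranked peaks of every list it was 18.5% in Sp1 WT (against 7.11%), 11.1% in Sp1 DBD (against 6.94%, difference 4.18) and 13.0% in the Sp1 WT line with rabbit anti-V5 (against 6.61%). Without shared promoters, over 28 genes, it was 3.57% in EWS IDR-Sp1 DBD (against 9.48%), 14.3% (against 8.52%) and 7.14% (against 5.55%, difference 1.60) in the Sp1 IDR-CTCF DBD line with rabbit and mouse anti-V5, and 10.7% in the Sp1 WT line with rabbit anti-V5 (against 6.43%, difference 4.28).

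The median percentile, ranked by 1 replicate alone, ran from 57.6 to 63.5 in Sp1 WT, 46.7 to 55.2 in Sp1 DBD, 44 to 50.1 in EWS IDR-Sp1 DBD, 32.0 to 35.4 and 39.6 to 45.7 in CTRL with rabbit and mouse anti-V5, 35.8 to 38.9 and 24.3 to 24.9 in the Sp1 WT line, and, with the antibodies in that order, Sp1 IDR-LacI cells gave 41.8 to 45.2 and 23.3 to 34.1 and Sp1 IDR-CTCF DBD cells 47.4 to 49.5 and 19.3 to 23.6. At IDR of at most 0.05 it was 37.7 in Sp1 DBD, 45.1 in EWS IDR-Sp1 DBD, 29.3 and 53.2 in CTRL with rabbit and mouse anti-V5, 48.7 and 29.2 in the Sp1 WT line, 40.8 in the Sp1 IDR-LacI line with rabbit and 19.7 in the Sp1 IDR-CTCF DBD line with mouse anti-V5. Ranked among all peaks it was 68.3 in Sp1 WT, 40.4 and 25.9 in the Sp1 WT line with rabbit and mouse anti-V5, and 51.5 in the Sp1 IDR-CTCF DBD line with rabbit anti-V5.

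The share of peaks with a GC box depended on the search. Within 50 bp it was 41.7% in Sp1 WT and 52.9% in Sp1 DBD, against 48.3% and 50.2% of all occupied genes, so that in Sp1 WT the share was not the higher one there. As GGGGCGGGG it was 41.7% in Sp1 WT (against 29.4%), 64.7% in Sp1 DBD (against 31.2%), 37.5% in EWS IDR-Sp1 DBD (against 33.0%) and 53.3% in CTRL rabbit anti-V5 (against 40.6%). Within 200 bp it was 100% in EWS IDR-Sp1 DBD (8 of 8 genes, against 95.7%), and at IDR of at most 0.05 it was 100% in Sp1 DBD (against 77.9%) and EWS IDR-Sp1 DBD (against 78.7%). No paired analysis was possible because each list is 1 value made from both replicates. Read numbers were not used here, and a gene without a peak is not shown to be unbound.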
